A study of Mus musculus with 2 samples.

Results

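The alpha crystallins Cryaa (alpha A) and Cryab (alpha B) and the heat shock factor Hsf4 were compared in 2 tissues of the mouse lens, its epithelium and its fibers. Members were all probes whose platform gene symbol was exactly Cryaa, Cryab or Hsf4. This gave 3 probes, 1 for each of the 3 genes, among 45281 probes for 19057 named genes. The series holds 1 array of lens epithelium and 1 array of lens fibers, both from wild-type mouse embryos at stage E12.5 with no treatment named. Total RNA was labelled with biotin and hybridised to 1-colour Illumina arrays. The sources used here do not give the strain, the number of embryos pooled or the way the tissues were parted. Neither tissue has a replicate, which leaves no SD, test or p-value, and every ratio below describes these 2 arrays.

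Alpha crystallins are the main small heat shock proteins of the lens. They form large oligomers that hold unfolding proteins in solution, and together with the beta and gamma crystallins they make the fiber cytoplasm dense and transparent. Cryaa is largely restricted to the lens, whereas Cryab is also made in heart, skeletal muscle and other tissues. Hsf4 is a DNA-binding heat shock factor that acts in the developing lens without heat stress. Mutations of each of these genes are known to cause cataract.

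The promoter of Cryaa is shown because Cryaa had the largest difference of the 3 genes and because factors that bind this promoter are described further on. The RefSeq promoter table (GRCm38.p6) matched 1 of the 3 genes. The 250 bases before the Cryaa start site, chr17:31677681-31677930 on the + strand, read 5′ to 3′ with matches to TGCTGA, the core of the Maf recognition element, and to TATATA, a core promoter motif, in capitals:

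Cryaa: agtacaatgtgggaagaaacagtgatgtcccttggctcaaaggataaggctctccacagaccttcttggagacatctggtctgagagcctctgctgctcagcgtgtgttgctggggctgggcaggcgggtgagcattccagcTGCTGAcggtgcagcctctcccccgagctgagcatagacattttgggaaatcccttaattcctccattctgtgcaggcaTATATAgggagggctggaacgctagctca

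TGCTGA occurred 1 time, from 108 to 103 bases before the start site, and TATATA 1 time, from 29 to 24 bases before it. On either strand, TGCTGA was found in 16.1% of the 32851 windows of this length in the table and TATATA in 5.25%. The heat shock element is built from inverted GAA repeats. Its paired forms GAANNTTC and TTCNNGAA, each the same on both strands, were in 6.69% and 7.17% of windows, and these letters were not in this Cryaa window.

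A normalized intensity is the probe's brightness after both arrays were given the same distribution (quantile normalization). The floor of an array, 44.5 for epithelium and 32.0 for fibers, is the 95th percentile of 1580 probes of olfactory receptor and similar genes that the lens is not known to use (the silent probes). A gene was measured when it was above the floor on at least 1 array. A gene above it on 1 array only has a bound, written "at least N-fold". All log2 ratios are fibers over epithelium.

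Cryaa and Hsf4 were at least 2-fold higher in fibers, and Cryab had a bound below 2-fold. These are 2 of 3 members, where 16.0% of 6474 measured genes were at least 2-fold higher in fibers and 19.4% at least 2-fold higher in epithelium. A second scale rests on 11 housekeeping genes above the floor on both arrays. Their log2 ratios ran from -0.71 (Vcp) to 3.18 (Rab7), with a median of 0.84, the value of Actb. Scaled to these housekeeping genes, the split over all genes became 300 and 2789 against 1034 and 1258. The median log2 ratio of all measured genes moved from 0.00 to -0.63. On that scale Cryaa remained past 2-fold, Hsf4 did not, and Cryab had no direction. A loess fit gave 1335 and 909 genes, with a median of 0.17.

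**Figure D1:**
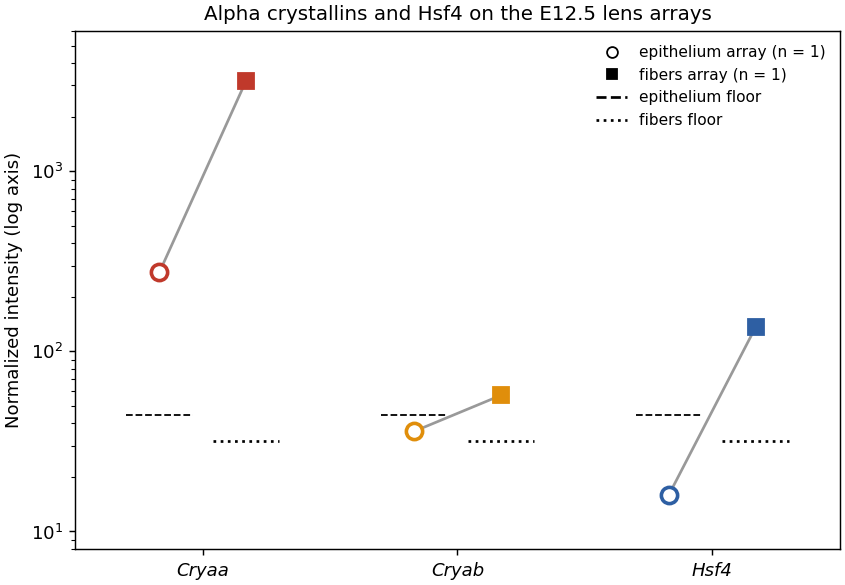
Normalized intensity (log axis) of the Cryaa, Cryab and Hsf4 probes on the epithelium array (open circles) and the fibers array (filled squares), 1 array each, with the floor of each array as a dashed or dotted line. Cryaa was above both floors, while Cryab and Hsf4 were above the fibers floor only.

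The probe of Cryaa (ILMN_2634888) was deposited at 276 in epithelium and 3199 in fibers. Normalized, it read 276 and 3183, a log2 ratio of 3.53 (11.6-fold). Both values were above the floor, and 4 of the 1580 silent probes reached the Cryaa value in epithelium and 0 in fibers. Cryaa had the 5th highest ratio of the 2931 genes above the floor on both arrays, of which 14.7% were at least 2-fold higher in fibers. The genes above it were the crystallins Crybb1 and Crygc, the insulin receptor substrate Irs1 (15.1-fold) and the nuclear import factor Ipo8 (13.7-fold). Irs1 and Ipo8 were chosen after their values were seen. The log2 ratio of Cryaa was 2.69 when scaled to housekeeping genes.

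Cryaa signal was present in epithelium too, at 8.66% of the fibers signal of the same probe. Over the 13 other crystallins above the floor on both arrays, that share ran from 5.41% to 43.1%, with a median of 13.6%. The fiber markers named further on summed to 5671 in epithelium and 39713 in fibers. Mip alone gave 3206.5 and 19878 of these sums, and the crystallin Cryba4 gave 1511.5 and 12383. What part fiber cells had in the Cryaa signal of the epithelium was not tested. In whole-tissue RNA, fewer cells of a type and less RNA per cell cannot be told apart.

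The probe of Cryab (ILMN_2840213) was deposited at 36 in epithelium and 57 in fibers, and normalization left both values as they were. The epithelium value was below the floor, and 106 of the silent probes (6.71%) were as bright or brighter there. In fibers 27 silent probes (1.71%) were as bright or brighter. Cryab was therefore at least 1.28-fold higher in fibers, a log2 bound of 0.36. Of the 2334 genes measured on the fibers array alone, 49.8% had a bound as large as that of Cryab or larger. Both arrays held the Cryab probe close to background, and scaling to housekeeping genes left it with no direction.

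The probe of Hsf4 (ILMN_2746797) was deposited at 16 in epithelium and 135 in fibers. Normalized, it read 16 and 136, so it was at least 3.06-fold higher in fibers (log2 bound 1.61). In epithelium 305 silent probes (19.3%) were as bright or brighter, against 7 (0.443%) in fibers. The Hsf4 value in fibers stood at 4.25 times the floor and that of Cryab at 1.78 times. Of the 2334 genes measured on the fibers array alone, 25.8% had a bound of 2-fold or more and 11.6% had one at or above that of Hsf4. The log2 bound of Hsf4 was 0.77 when scaled to housekeeping genes and 0.30 with the floor at the 99th percentile of the silent probes, both under 2-fold.

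**Figure D2:**
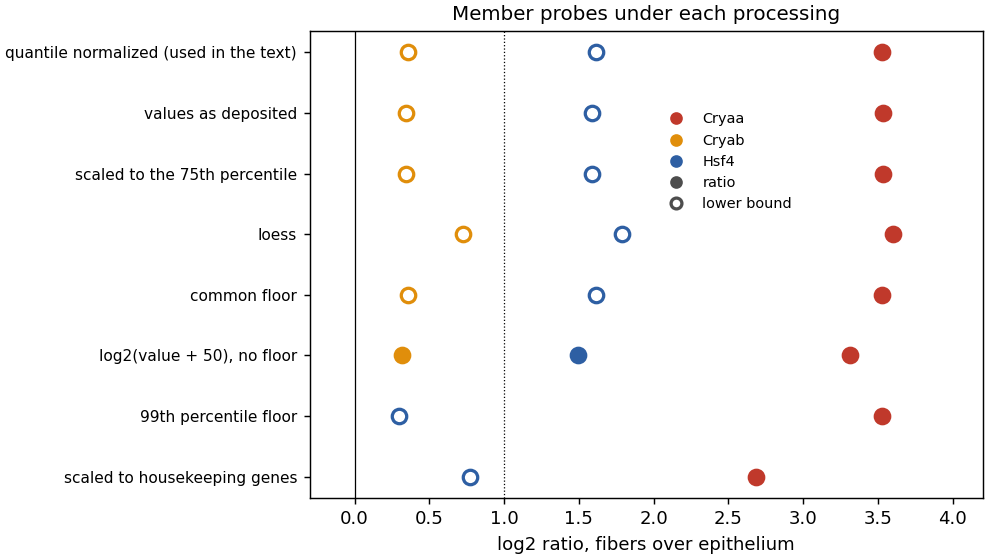
Log2 ratio, fibers over epithelium, of the Cryaa, Cryab and Hsf4 probes under each processing of the 2 arrays, with open points for lower bounds and a dotted line at 2-fold. Cryaa stays between 2.69 and 3.60, Hsf4 runs from 0.30 to 1.79, and Cryab has no point where it was below the floor on both arrays or had no direction.

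By distance over both log2 intensities on these 2 arrays, the 3 genes nearest to Cryaa were all crystallins. Crygc, a gamma crystallin, read 206.5 in epithelium and 2789 in fibers (13.5-fold) at a distance of 0.46. Crygf, another gamma crystallin, read 384 and 3591 (9.35-fold) at 0.51, and Crybb1, a beta crystallin, read 183.5 and 3389 (18.5-fold) at 0.59. Cryab and Hsf4 have no value in epithelium above the floor, so no nearest genes were taken for them.

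All 13 measured beta and gamma crystallins of 14 on the array were at least 2-fold higher in fibers, against 16.0% of all measured genes. The median log2 ratio of the 13 was 2.87 (7.33-fold), against 0.00 over all measured genes. By the brightest probe of each gene Cryaa lay within their range of 2.32-fold to 18.5-fold, with 2 of the 13, Crybb1 and Crygc, above it. Other probes differed: Crygn, a gamma crystallin named after its values were seen, was 7.33-fold higher by its brightest probe, but 21.5-fold and at least 31.6-fold higher by the others. Cryba1, a beta crystallin also named after its values were seen, was 5.33-fold higher by its brightest probe but 2.24-fold by its second, under 2.32-fold. Next below Cryaa were Crybb3, a beta crystallin (10.3-fold, with a second probe at 13.5-fold), and Crygf. Scaled to housekeeping genes, 11 of the 13 were past 2-fold, with a median of 2.03. Cryga to Crygf are near-identical, so a probe of one can bind transcripts of another. The bound of Cryab, 1.28-fold, is below this range but sets no upper limit, so Cryab cannot be placed against the other crystallins.

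**Figure D3:**
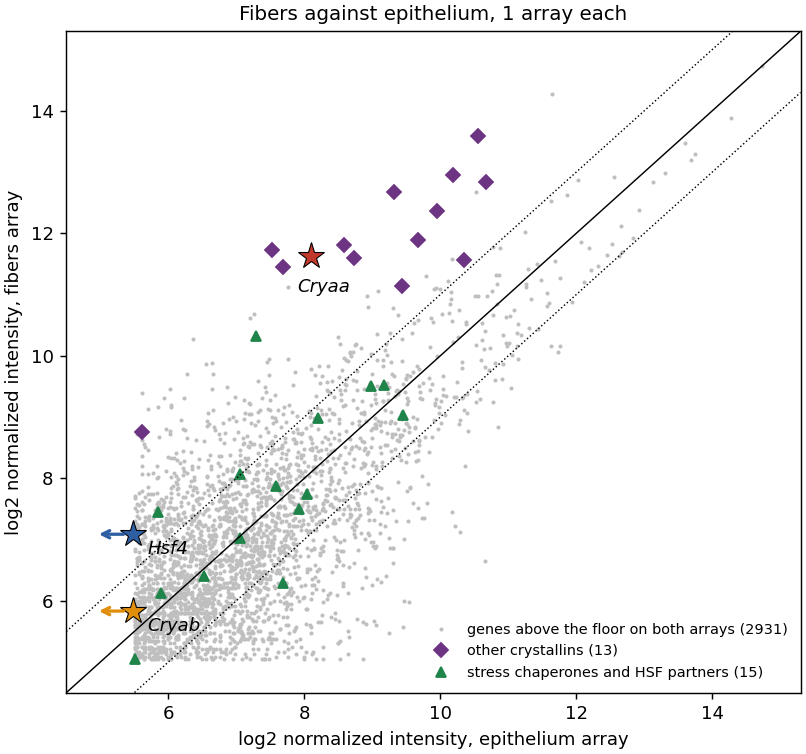
Log2 normalized intensity of 2931 genes above the floor on both arrays, fibers (vertical) against epithelium (horizontal), with equality as a solid line and 2-fold differences as dotted lines. Stars mark Cryaa, Hsf4 and Cryab, the last 2 drawn at the epithelium floor with an arrow because their epithelium value is a bound; Cryaa lies among the 13 other crystallins (diamonds), and most of the 15 stress chaperones (triangles) lie within the 2-fold lines.

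Of 10 small heat shock proteins on the array, 6 were measured, and 3 of these passed 2-fold toward fibers and 0 toward epithelium (median log2 ratio 1.07, or 0.47 when scaled to housekeeping genes). Besides Cryaa these were Hspb8, a chaperone that works with Bag3 in selective autophagy, and Hspb3, a muscle-associated member. Over all measured genes, 16.0% passed 2-fold toward fibers and 19.4% toward epithelium. Hspb8 read 178 in epithelium and 826 in fibers (4.64-fold), but a second Hspb8 probe was below the floor on both arrays. Hspb3 read 12 and 152.5 and was at least 3.43-fold higher in fibers. Hspb1 (Hsp25), at 7 and 39.5, and Hspb11, at 12 and 34, had no direction because their fibers values lay below the epithelium floor. Hspb2, Hspb6, Hspb7 and Hspb9 were below the floor on both arrays, as was the cochaperone gene Bag3. Scaled to housekeeping genes, 2 of the 6 were past 2-fold.

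Among 6 heat shock factors and their binding proteins on the array, 3 were measured and 2 passed 2-fold toward fibers, against 16.0% of all measured genes. These 2 were Hsf4, already counted as a member, and Hsbp1, a protein that binds heat shock factor trimers. Hsbp1 read 74 and 172.5 (2.33-fold), and its second probe was below the floor on both arrays. Hsf2, a factor of development and stress, read 3 and 45.5, a bound of 1.02-fold. Hsf3, Hsf5 and Hsf2bp were below the floor on both arrays, and Hsf1 had no named probe. With 3 measured genes the list median was 1.22, and it was 0.38 when scaled to housekeeping genes, where no member reached 2-fold.

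Genes tied to Hsf4 in the lens by earlier work were compared as a list of 19 genes, 16 of them on the array. Of 13 measured genes, 9 passed 2-fold toward fibers and 0 toward epithelium, against 16.0% and 19.4% of all measured genes. The list median log2 ratio was 2.16, or 1.32 with 8 genes past 2-fold when scaled to housekeeping genes. The gamma crystallins made up 7 of the 9, and these also belong to the crystallin list above. Crygs, a gamma crystallin that is distinct in sequence from Cryga to Crygf, read 49 and 434 (8.86-fold), and Crygc and Crygf are given above. The 6 measured genes outside the gamma crystallins had a median of 0.32, and 2 of them passed 2-fold toward fibers. These were Lim2, a fiber membrane protein, at least 8.56-fold higher (11 and 381), and Bfsp2, the phakinin subunit of the beaded filament, at least 4-fold higher (12 and 178). Both are bounds, and 25.8% of genes measured on the fibers array alone had a bound of 2-fold or more. The other measured genes of the list were Cryab, Hspb1, Vim and Dnase2b. Dnase2b, the nuclease that degrades DNA in maturing fibers, read 42.5 and 48.5, a bound of 1.09-fold, with its other probes below both floors.

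**Figure D4:**
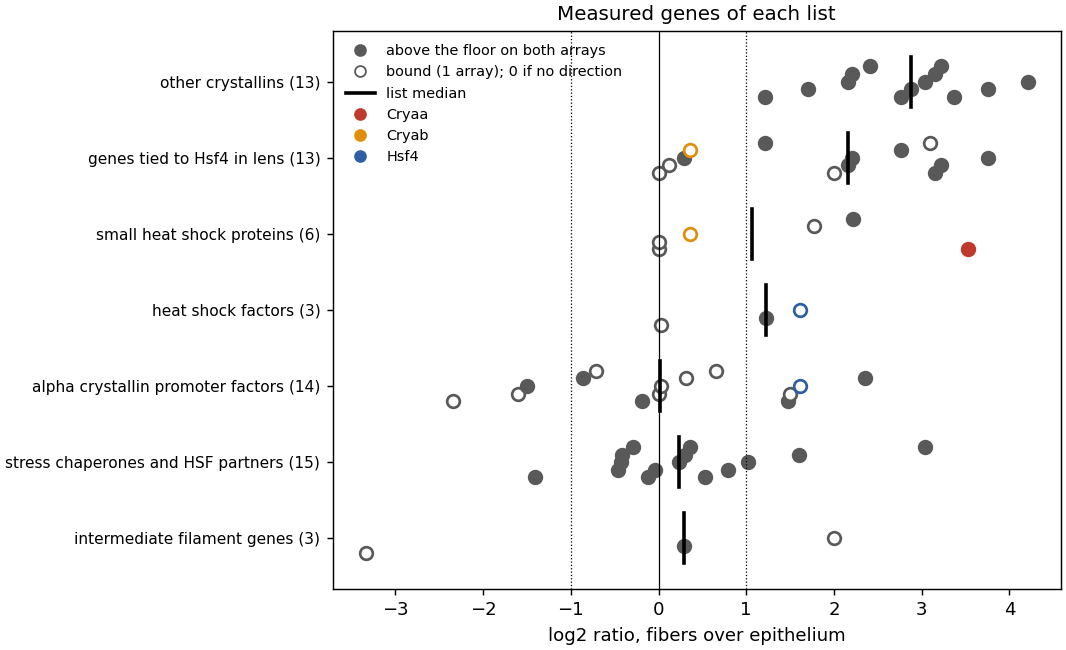
Log2 ratio, fibers over epithelium, of every measured gene of 7 lists (number of genes in brackets), with filled points for genes above the floor on both arrays, open points for bounds, and a black bar at the list median. Cryaa, Cryab and Hsf4 are coloured; the 13 other crystallins all lie above the 2-fold line, while the 14 promoter factors spread to both sides of 0 and the 15 stress chaperones have a median of 0.23 that becomes -0.75 when scaled to housekeeping genes.

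Factors that act on alpha crystallin promoters went in both directions, as did measured genes as a whole. Of 26 on the array 14 were measured, with 4 (28.6%) past 2-fold toward fibers and 3 toward epithelium. Over all measured genes these shares were 16.0% and 19.4%. The median log2 ratio of the factors was 0.02, against 0.00 over all measured genes. Scaled to housekeeping genes, it was 0.00, with 1 and 6 genes past 2-fold. The 4 were Hsf4 itself, Mafg, the homeobox factor Prox1 (2.78-fold, second probe 4.91-fold) and the acetyltransferase Ep300 (at least 2.83-fold). The other Ep300 probes were below both floors. Prox1 and Ep300 were chosen after their values were seen. By the brightest probes, Mafg alone of the 4 was past 2-fold on the other scale. Mafg, a small Maf factor that pairs with large Maf proteins, read 117.5 in epithelium and 602.5 in fibers (5.13-fold, second probe 3.06-fold). Maf, a large Maf factor of fiber differentiation chosen after its values were seen, read -2 and 70, at least 1.57-fold higher in fibers, with no direction when scaled to housekeeping genes. Sox11, Pitx3 and Pax6, transcription factors of the early lens, were higher in epithelium. Pax6 read 195 and 69 (2.83-fold, second probe 3.59-fold), Pitx3 97 and 18 (at least 3.03-fold), and Sox11 162 and 30 (at least 5.06-fold). Of the other Sox11 probes, 1 had no direction and the rest were below both floors.

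Stress chaperones and partners of heat shock factors were mostly within 2-fold, as were measured genes as a whole. Of the latter, 16.0% were past 2-fold toward fibers and 19.4% toward epithelium. The list also holds constitutive, mitochondrial and endoplasmic reticulum chaperones. Of 15 measured genes of 21 on the array, 3 passed 2-fold toward fibers and 1 toward epithelium, with a median log2 ratio of 0.23 that became -0.75 when scaled to housekeeping genes. Dnajb1, an Hsp40 cochaperone, stood at 156 in epithelium against 1282 in fibers (8.21-fold). On that scale Dnajb1 was the 1 member past 2-fold toward fibers, and 5 were past it toward epithelium. Hspa9, the mitochondrial Hsp70, read 57.5 and 175 (3.04-fold, second probe 1.82-fold), and Bag1, an Hsp70 cochaperone, read 132.5 and 269.5 (2.03-fold). Hspa5, the Hsp70 of the endoplasmic reticulum, read 206.5 and 78 (2.65-fold higher in epithelium). The stress-inducible Hsp70 genes Hspa1a and Hspa1b, chosen after their values were seen, were deposited at 2 and -3, and at -4 and 0, below the floor on both arrays.

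Intermediate filament proteins are known clients of alpha crystallins, and 3 of 7 genes on the array were measured. Bfsp2 was at least 4-fold higher in fibers, as above. Lmnb1, a nuclear lamin, read 323 in epithelium and 19 in fibers, a bound of 10.1-fold toward epithelium, with its second probe below both floors. Vim, the main filament protein of the young lens, read 73 and 89, a log2 ratio of 0.29 that became -0.56 when scaled to housekeeping genes. Its second probe was below both floors.

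The genes next to the members were read from the order of protein-coding genes in the RefSeq table (GRCm38.p6). Hspb2, which shares a divergent promoter region with Cryab, was deposited at 39 in epithelium and -1 in fibers, below the floor on both arrays. On the other side of Cryab, 2310030G06Rik was also below both floors. Beside Hsf4, Nol3, an inhibitor of apoptosis, read 39.5 and 143 and was at least 3.22-fold higher in fibers, a bound close to that of Hsf4, while Fbxl8 on the other side was below both floors. Beside Cryaa, the splicing factor gene U2af1 read 47.5 and 13 (at least 1.48-fold higher in epithelium), and the kinase gene Sik1 was below both floors.

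Lens markers followed the labels. Of 10 fiber markers on the array, 9 were measured and all 9 passed 2-fold toward fibers. Gja3 was at or below 0 on both arrays. Of 9 epithelium markers, 6 were measured and all 6 passed 2-fold toward epithelium, with sums of 3339 and 729.5, while Foxe3, an epithelium-defining factor, was at or below 0 on both arrays. Cryab is also a muscle gene, and 0 of 6 muscle markers were above the floor, with sums of 66 and 57. Of the 7 retina and 9 periocular mesenchyme markers on the array, 2 (Sfrp2 and Fgf15) and 1 (Tfap2b) were measured, with sums of 1381 and 229 and of 306 and 93. Erythroid markers were measured for 4 of 8 genes (Hbb-y, Hba-a1, Hbb-bs and Hbb-bt), with list sums of 3746 and 2680. Pigment markers were measured for 2 of 6 (Mitf and Pmel), with list sums of 170 and 116.5. For endothelium it was 1 of 6 (Tek), with list sums of 50 and 113.5, and for macrophages 2 of 4 (Csf1r and Aif1), with 97.5 and 80. Every sum in this paragraph is over all genes of its list on the array, measured or not, with values below 0 counted as 0. Tek itself read 7 in epithelium, below the floor, and 83.5 in fibers. Six6, Col1a1, Emcn, Hba-x, Alas2, Actc1 and Acta1 were at or below 0 on both arrays. The part of these cell types in the member values was not tested.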

How the data were processed

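The deposited values are linear intensities, 1 for each probe on an array, in whole numbers down to -16. Since 38.0% of them in epithelium and 38.7% in fibers did not exceed 0, the authors had removed a background. The sources used here do not give the background method, any scaling or the software. Names came from the platform annotation (34885 probes with 1 symbol, 18 with several, 10378 with none), updated through the gene ID for the 34807 named probes whose ID was in the RefSeq table. The linear values were then quantile normalized, which equalizes both distributions and hides any difference in total RNA (Python 3.11.15, numpy 2.4.6, pandas 2.3.3, statsmodels 0.14.6). The brightest probe stood for a gene. Bounds enter a list median at their value, and as 0 without a direction. The number of arrays limits the precision. The only spread available was that between probes of the same gene, an SD of 0.74 on the log2 scale (1038 probes, 472 genes); the 32 silent probes above both floors ran from -2.31 to 2.36. The ratio code was tested on simulated data.

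Members and lists were chosen with earlier results of these data known. All member probes were named, all measured genes of the small heat shock, heat shock factor and filament lists, and from the others the 4 largest absolute log2 ratios and any 2-fold difference against the list median. The neighbours of the members, the 3 nearest genes, and other-cell markers by their lists were added.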

Additional observations from a re-analysis of the deposited data

How the results depend on the processing

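Of 7 alternatives for the members, scaling to housekeeping genes and the floor at the 99th percentile changed a call. Scaling to housekeeping genes moved Cryaa to a log2 ratio of 2.69 and Hsf4 to a bound of 0.77, left 1 of 3 members past 2-fold, and gave 300 genes higher in fibers and 2789 in epithelium. The 99th percentile floor moved Hsf4 to 0.30, left 1 member past 2-fold, and gave 351 and 474 genes. Both follow from how these alternatives are built, the first dividing the fibers array by 1.79 and the second raising the floor. Cryab had no value under either. The other 5, which were the deposited values, the 75th percentile scaling, loess, a common floor and log2(value + 50), moved no member by as much as the SD between probes of a gene. Of these, the common floor was 44.5, the epithelium floor that the member bounds already used, and it left all 3 member values unchanged. The 75th percentile scaling gave the same member values as the deposited data, so neither is a separate check on the members. With the mean of all probes 666 and 765 genes were past 2-fold, and with the second brightest probe, which fewer genes have, 198 and 233. The list counts and medians moved in 21 of 171 further recomputations. In 4 a list median within 2-fold changed sign: stress chaperones (-0.75) and filament genes (-0.56) scaled to housekeeping genes, filament genes (-0.06) with log2(value + 50), and promoter factors (-0.19) with the mean of all probes. Each member has 1 probe, so no second probe bears on it, and Cryab and Hsf4 in epithelium lie within the background signal. No paired analysis was possible because each group has 1 array.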
